A study of Mus musculus with 3 samples.

Results

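Astrocytes make lipoprotein particles, load them with cholesterol and hand them to neighbouring cells, and 10 mouse genes of that route were examined here: the apolipoproteins Apoe, Clu and Apod, the cholesterol exporters Abca1 and Abcg1, the lipoprotein receptors Lrp1 and Vldlr, and the lipases and remodelling factors Lpl, Lcat and Pltp. The genes were chosen by name, with earlier results of these data known, so their counts are descriptions. A probe set, the group of short probes that reports 1 transcript on the array, was used only where the platform annotation tied it to exactly 1 gene. All 10 genes had such a probe set, 25 of them together, out of 34958 probe sets for 18194 genes. A gene is represented by whichever of its probe sets was brightest on average, and the others are shown beside it.

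The study grew mouse embryonic stem cells, labelled wild type with no strain or line named, into embryoid bodies for 4 days, selected neural precursors in ITSFn medium for 5 to 7 days and expanded them with FGF2 and EGF2. At 18 passages after the embryoid bodies, the growth factors were withdrawn and 5% fetal bovine serum was added for 5 days to give astrocytes. Total RNA from 3 samples of these cells was measured on 1-colour Affymetrix Mouse Genome 430 2.0 arrays. The samples form 1 group, called replicates 1, 2 and 3, with no control and no contrast. The cells are a culture model of astrocytes made in serum. The labels do not state whether separate cultures were used, so the spread and the p-values measure only these 3 samples and may be technical.

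In the brain, cholesterol does not arrive from the blood but is made locally, largely by glia. Abca1 moves cholesterol and phospholipid from the cell onto apolipoprotein E or another acceptor, Abcg1 adds more to the young particle, and Lcat turns the cholesterol at its surface into esters. Neurons and glia take the particles up through receptors of the low-density lipoprotein receptor family, among them Lrp1 and Vldlr. The nuclear receptors LXR, which sense oxidised cholesterol, switch on Abca1, Abcg1 and Apoe.

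Each level below is the mean log2 signal ± SD (n = 3). It was tested against a background limit, the 95th percentile on each array of 78 genes for smell, pheromone, trace-amine and taste receptors. The limit was 3.99, 4.10 and 4.07 log2 units on replicates 1, 2 and 3. Probe sets differ in brightness, so the level of a gene is not set against that of another. On these arrays 58.3% of the 18116 other genes were above background (one-sided limma test of the mean distance from the limit, adjusted p below 0.05 by Benjamini-Hochberg), and 7 of the 10 genes were: Apoe, Clu, Abca1, Lrp1, Vldlr, Lcat and Pltp. Apod, Abcg1 and Lpl were not. At an unadjusted p below 0.05 the count among the 10 was also 7, and the share of all genes was 59.1%. The 7 genes lay above the limit on each of the 3 arrays, as did 59.8% of all genes tested. The median distance from the limit was 4.52 log2 units over the 10 genes and 1.76 over all genes tested. Such medians only describe a list, since they also carry the brightness of its probe sets, and no ranking is read from them here or below. In bulk RNA a low signal from every cell and a high signal from a few cells cannot be told apart.

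**Figure D1:**
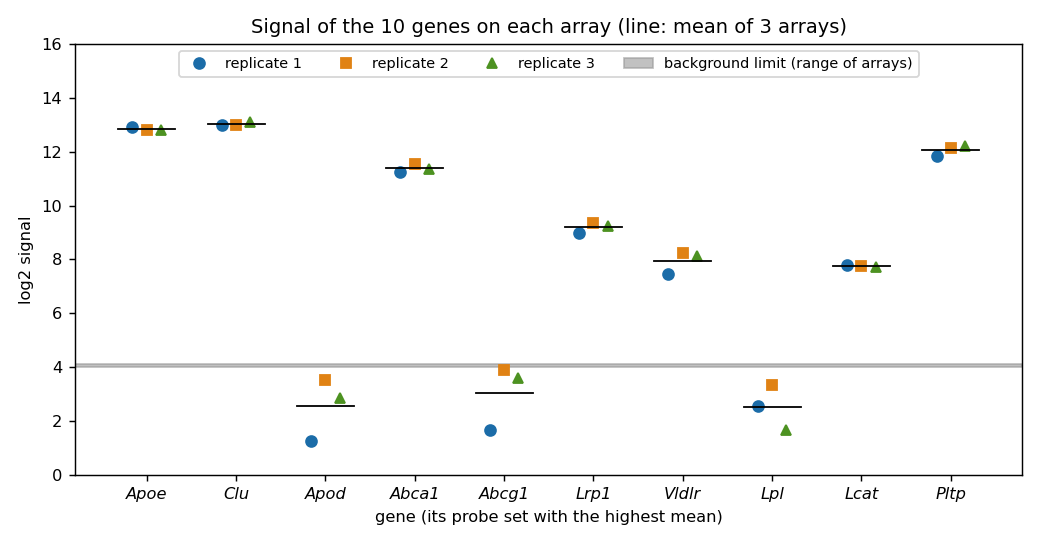
Log2 signal (vertical axis) of the 10 genes on each of the 3 arrays, with the mean as a black line and the range of the background limit over the arrays as a grey band. Apoe, Clu, Abca1, Lrp1, Vldlr, Lcat and Pltp lie above the band on every array, and Apod, Abcg1 and Lpl lie below it on every array.

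Of the apolipoproteins, Apoe and Clu were above background on every probe set and Apod on neither. Apoe, the main lipid carrier protein of the brain, had log2 signals of 12.93, 12.82 and 12.79 on replicates 1, 2 and 3, from a single probe set. These are deposited intensities of 7787, 7239 and 7092, and their mean lay 8.79 log2 units above the limit (adjusted p = 3.85e-05, limma). The SD over the arrays was 0.07, beside a median SD of 0.07 among the 88 genes above background whose level was within 0.5 log2 units. The range was 0.13 log2 units as deposited and 0.48 after centring each array on the median shift of the genes above background.

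Clu encodes clusterin, also called apolipoprotein J, a secreted chaperone found on lipoprotein particles. Its leading probe set, 1454849_x_at, had log2 signals of 13.01, 12.98 and 13.11 on replicates 1, 2 and 3 (8.98 above the limit, adjusted p = 3.85e-05, limma). The range of this probe set was 0.14 log2 units as deposited and 0.24 after centring. All 4 of its probe sets were above background, with means of 13.03, 12.81, 12.81 and 12.37. The names of all but the last carry the x that marks probes able to bind several transcripts. Without probe sets of that kind Clu lay 8.32 log2 units above the limit. No Clu probe set differed by more than 0.16 log2 units between replicate 3 and the mean of replicates 1 and 2.

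Apod encodes a small carrier of the lipocalin family that binds arachidonic acid and steroids and is made in the adult brain by astrocytes and oligodendrocytes. Its 2 probe sets had means of 2.54 ± 1.17 and 1.68 ± 1.60 (SD, n = 3). The brighter one read 1.25, 3.53 and 2.84 on replicates 1, 2 and 3, below the limit on all 3 arrays, and lay at -1.51 log2 units from it. At this level the arrays scatter widely, so no difference between them can be read, and Apod is described as not above background rather than absent.

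Promoter sequences make the genes concrete and are shown for Abca1, Apoe and Apod, 2 genes above background and 1 that was not. Each runs 5′ to 3′ on the strand of its gene from 250 bases before the annotated start to 50 after it, from RefSeq on GRCm38.p6. Capitals mark CG dinucleotides, the sites of DNA methylation in mammals. The sequences were matched by symbol, and 7 of the 10 genes had an entry, with 10 starts in all. Clu, Abcg1 and Lpl had none.
Abca1, chr4:53159846-53160145, minus strand: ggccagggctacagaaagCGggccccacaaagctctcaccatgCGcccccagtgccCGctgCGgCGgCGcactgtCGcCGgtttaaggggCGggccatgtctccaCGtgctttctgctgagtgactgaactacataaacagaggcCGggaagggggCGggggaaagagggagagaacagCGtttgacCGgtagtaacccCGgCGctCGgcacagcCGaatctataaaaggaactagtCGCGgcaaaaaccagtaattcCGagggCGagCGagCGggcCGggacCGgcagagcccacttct
Apoe, chr7:19699139-19699438, minus strand, the first of 3 listed starts: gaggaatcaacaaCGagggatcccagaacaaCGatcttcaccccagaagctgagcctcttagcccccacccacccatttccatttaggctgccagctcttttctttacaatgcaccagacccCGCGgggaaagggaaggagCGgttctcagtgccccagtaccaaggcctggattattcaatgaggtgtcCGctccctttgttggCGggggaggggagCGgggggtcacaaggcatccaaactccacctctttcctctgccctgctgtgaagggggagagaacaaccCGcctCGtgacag
Apod, chr16:31314759-31315058, minus strand: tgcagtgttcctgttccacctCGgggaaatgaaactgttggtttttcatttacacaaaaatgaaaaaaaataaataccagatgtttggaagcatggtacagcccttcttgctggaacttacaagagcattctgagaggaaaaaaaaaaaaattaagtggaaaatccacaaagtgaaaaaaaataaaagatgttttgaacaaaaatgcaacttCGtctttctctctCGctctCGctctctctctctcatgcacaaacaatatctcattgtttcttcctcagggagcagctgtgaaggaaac
The Abca1 window holds 26 CG sites, that of Apoe 10 and that of Apod 4. The ratio of observed to expected CG was 0.89 for Abca1, 0.40 for Apoe and 0.38 for Apod. Among the other starts of genes above background the ratio was 0.62 and 0.59 at the remaining Apoe starts, 0.59 for Lrp1, 0.61 and 0.66 for Vldlr, 0.25 for Lcat and 0.50 for Pltp. Its median was 0.77 over 11175 windows of genes above background and 0.34 over 6869 windows of genes that were not. Among the windows of the 7 genes with an entry, Apod included, only that of Abca1 had a ratio above the median of the genes above background.

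Motifs were searched on both strands of these windows. The ideal LXR element, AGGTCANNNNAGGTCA, was in none of the 10 windows and in 0.0152% of all 32851 windows, and its half-site AGGTCA was in none of the 10 and in 16.3% of all. A looser form, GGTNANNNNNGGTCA, was chosen after the Abca1 sequence was seen, so its match there was fixed in advance. It matched 1 of the 10 windows and 0.207% of all, and these shares cannot be compared. The match is in Abca1, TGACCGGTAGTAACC on the strand shown, from 67 to 53 bases before the start. The TATA box TATAAA was in the Abca1 window 29 bases before the start. In 1 of the Apoe windows not shown it lay between 100 and 91 bases before the start, on both strands. In the Pltp window it lay from 36 to 41 bases after the start. It was in 13.6% of all windows. The GC box GGGCGG was in the windows of Abca1, Lrp1, Vldlr and Pltp and in 35.7% of all. The sterol regulatory element, searched as TCACNCCAC, was in none of the 10 windows and in 1.24% of all. The E-box CACGTG was in the Abca1 window alone among the 10 and in 7.15% of all, and the STAT site TTCNNNGAA in the Lrp1 window alone and in 8.30% of all. A match is a run of letters and not a measured binding site.

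The exporters split: Abca1 was above background on every probe set and Abcg1 on neither. Abca1 is the membrane pump that starts lipoprotein assembly and whose loss causes Tangier disease in humans. Its leading probe set, 1421840_at, had log2 signals of 11.23, 11.54 and 11.37 on replicates 1, 2 and 3 (7.33 above the limit, adjusted p = 3.85e-05, limma). The SD of 0.15 was close to the median SD of 0.16 of 437 genes of like level.

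The other 2 probe sets of Abca1 parted from the leading one on 1 array. Probe set 1421839_at had log2 signals of 9.19, 9.22 and 6.72 on replicates 1, 2 and 3, and probe set 1450392_at had 7.66, 7.59 and 4.88. Both were therefore even on replicates 1 and 2 and low on replicate 3, where they stood at -2.48 and -2.75 log2 units from the mean of the other arrays, while the leading probe set stood at -0.02. In deposited intensity, 1421839_at read 583, 596 and 106. Both still passed the test (adjusted p = 0.00405 and 0.0237 over 34871 probe sets, limma). No source used here states which part of the transcript each probe set covers.

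The control probe set for the 5′ end of the beta-actin transcript was low on the same array, and that for the 3′ end was not. The 5′ control read 9253, 8649 and 5016 in deposited intensity on replicates 1, 2 and 3, and the 3′ control 10365, 10120 and 9865. The ratio of 3′ to 5′ signal is a usual check of RNA integrity and of how fully transcripts were copied and labelled. On replicates 1, 2 and 3 it was 1.12, 1.17 and 1.97 for beta-actin and 0.769, 0.770 and 1.24 for Gapdh. RNA quality is not stated in the sources used here. Across the arrays, 7703 probe sets above background shared a gene with a brighter one, and 178 of these (2.31%) were lower by 2 or more log2 units, relative to that brighter one, on replicate 3 than on the other arrays. The same count was 2 (0.026%) for replicate 1 and 1 (0.013%) for replicate 2. The part of this shift in the Abca1 values was not tested. With the median of its 3 probe sets in place of the brightest, the range of Abca1 over the arrays was 2.67 log2 units instead of 0.32, and the gene stayed above background, by 4.35.

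**Figure D2:**
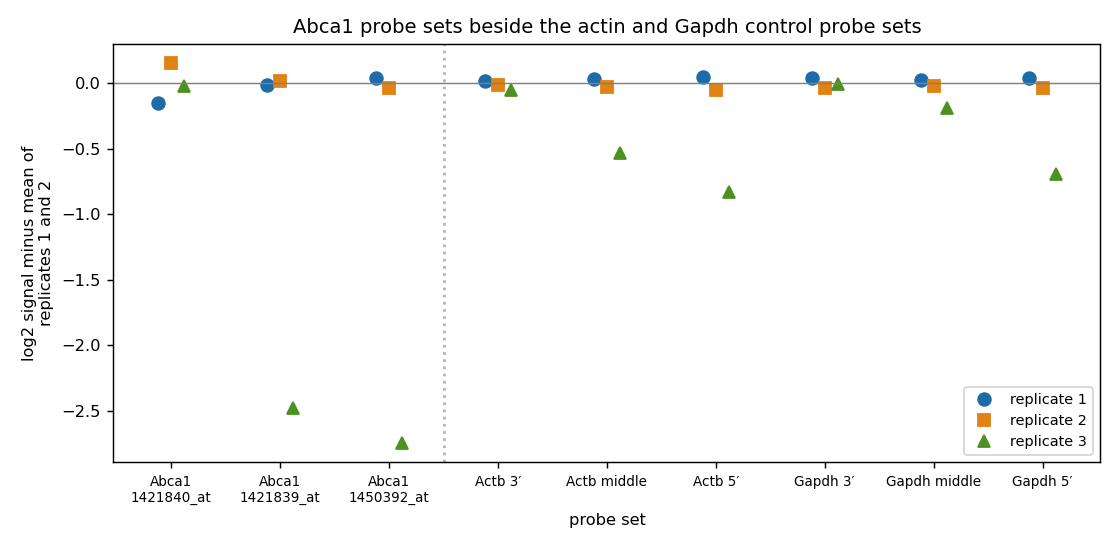
Log2 signal minus the mean of replicates 1 and 2 (vertical axis) for the 3 Abca1 probe sets, left of the dotted line, and for the control probe sets along the beta-actin and Gapdh transcripts, right of it. On replicate 3, 2 Abca1 probe sets stand at -2.48 and -2.75 and the 5′ controls at -0.83 and -0.69, while the leading Abca1 probe set is at -0.02 and the 3′ controls are at -0.05 and -0.004.

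Abcg1 hands cholesterol to particles that already carry lipid. Its brighter probe set, 1423570_at, read 1.66, 3.89 and 3.60 on replicates 1, 2 and 3, with a mean of 3.05 ± 1.21 (SD, n = 3) that lay at -1.002 log2 units from the limit. The second probe set read 1.89, 1.38 and 1.09. No Abcg1 value on any array was above the limit of that array.

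Both receptors were above background, each on some of its probe sets. Lrp1, a large endocytic receptor for apolipoprotein E and for amyloid-beta, had log2 signals of 8.99, 9.36 and 9.26 on replicates 1, 2 and 3 (5.15 above the limit, adjusted p = 3.93e-05, limma). Its second probe set, 1442849_at, read 3.57, 4.56 and 5.37, which is above the limit on 2 arrays but short of the test's threshold (adjusted p = 0.289, limma). The SD of the leading probe set was 0.19, beside a median of 0.21 for 1585 genes of like level.

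Vldlr binds apolipoprotein E particles and is also a receptor for reelin, the secreted guide of migrating neurons. It had the most probe sets of the 10 genes, 6, of which 4 were above background. The leading one, 1434465_x_at, read 7.46, 8.22 and 8.13 on replicates 1, 2 and 3 (3.88 above the limit, adjusted p = 0.000131, limma). Replicate 1 was the low one for this probe set, and the SD of 0.42 was the widest among the 7 genes above background, beside a median of 0.25 for 2221 genes of like level. The other 3 that passed had means of 6.20 ± 0.24, 6.12 ± 0.39 and 4.83 ± 0.37 (SD, n = 3), and the 2 that did not pass had 4.00 ± 0.22 and 3.47 ± 0.35. The name of the leading probe set carries the x that marks probes able to bind several transcripts. Without probe sets of that kind Vldlr took 1417900_a_at and lay 2.15 log2 units above the limit.

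**Figure D3:**
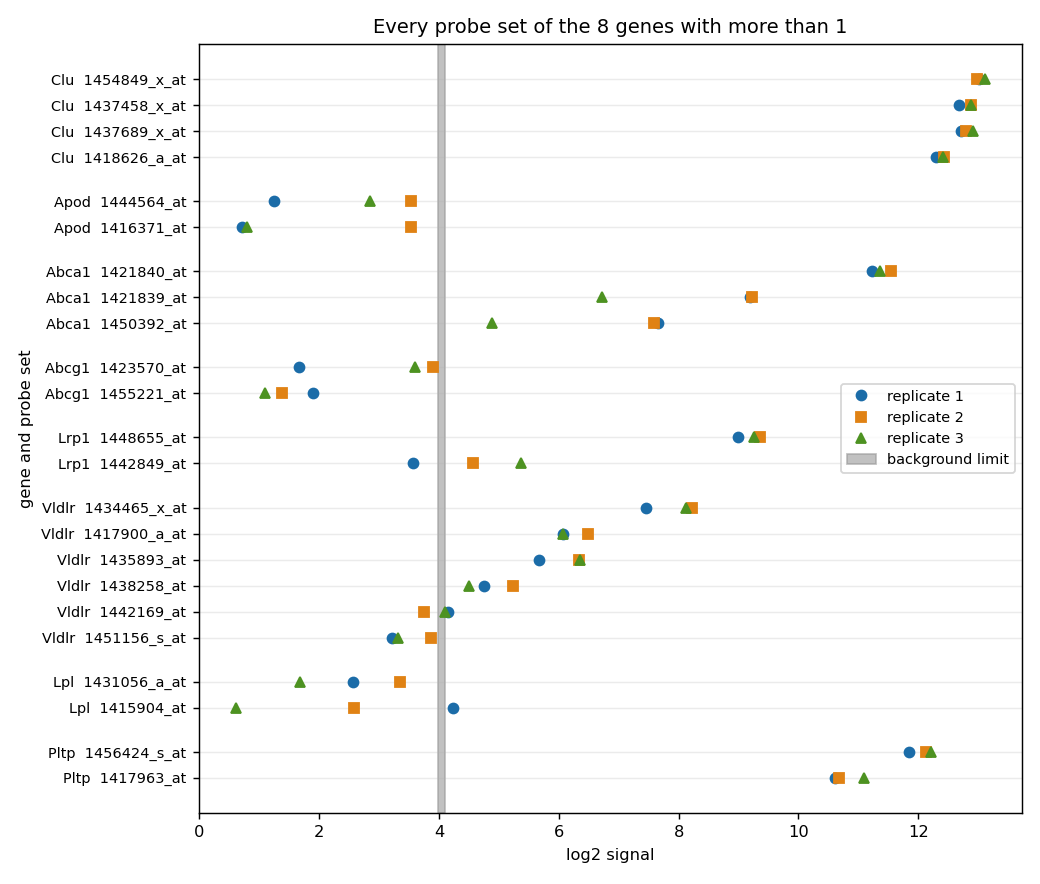
Log2 signal (horizontal axis) on each array for every probe set of the 8 genes that have more than 1, with the background limit as a grey band. The Clu and Pltp probe sets lie far above the band on each array, those of Vldlr run from above it to just below it, 2 Abca1 probe sets are low on replicate 3, and those of Apod and Abcg1 stay below it.

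The lipid-modifying genes also split. Pltp, the phospholipid transfer protein that moves phospholipid between particles, had log2 signals of 11.84, 12.14 and 12.22 on replicates 1, 2 and 3 (8.01 above the limit, adjusted p = 3.85e-05, limma). Its second probe set read 10.61, 10.67 and 11.10 and was also above background. Replicate 1 was the low array for both. The name of the leading one carries an s, a mark of probes shared by several transcripts. Without probe sets marked s or x Pltp lay 6.74 log2 units above the limit. After the same centring, the range of the leading probe set was 0.10 log2 units, against 0.38 without centring.

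Lcat, the enzyme that esterifies cholesterol on particles and is made by astrocytes in the brain, had log2 signals of 7.80, 7.76 and 7.72 on replicates 1, 2 and 3 from its single probe set (3.71 above the limit, adjusted p = 5.36e-05, limma). Its SD of 0.04 was smaller than the median of 0.26 among 2236 genes of like level. That evenness depends on the scaling, since the range was 0.08 log2 units as deposited and 0.42 after centring.

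Lpl, lipoprotein lipase, releases fatty acids from triglyceride-rich particles and in the nervous system is known from neurons and microglia. Its 2 probe sets had means of 2.53 ± 0.84 and 2.47 ± 1.81 (SD, n = 3). The second one, 1415904_at, read 4.23, 2.58 and 0.62 on replicates 1, 2 and 3, above the limit on replicate 1 by a small margin and below it on the others. Neither passed the test.

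The 3 genes below the limit spread more between arrays than the 7 above it, with SDs of 0.84 to 1.21 against 0.04 to 0.42 log2 units. The size of that contrast depends on taking log2 of small values with no pseudocount. Without one, the centred range over the arrays was 2.09 for Apod, 2.04 for Abcg1 and 1.82 for Lpl. On the log2(signal + 16) scale it was 0.41 for Apod, 0.51 for Abcg1 and 1.29 for Lpl, whose brighter probe set there is 1415904_at. Of the genes above background, Vldlr had 0.54 and Apoe 0.44 on that scale. The others were lower than Apod: Lcat 0.38, Abca1 0.31, Lrp1 0.23, Clu 0.21 and Pltp 0.12. Over all 25 probe sets of the 10 genes, 16 were above background and 9 were not, and 52.2% of all probe sets tested were above it.

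Around these genes, the wider lipoprotein route was read from lists. The LXR list had 9 of 11 measured genes above background, with a median distance of 4.39 log2 units from the limit (all genes tested: 58.3% and 1.76). Nr1h3, which encodes LXR alpha, was at 3.51 ± 1.31, and its partner gene Rxrg at 0.91 ± 0.55, and these were the 2 that did not pass (SD, n = 3). The other partner genes Rxra and Rxrb were at 6.93 ± 0.48 and 8.45 ± 0.80, and Rxra passed on 2 of 3 probe sets. Of the genes on this list that LXR is known to switch on, Mylip, which marks lipoprotein receptors for breakdown, was at 5.95 ± 0.10. The lipid synthesis factor Srebf1 was at 11.05 ± 0.33, and the fatty acid desaturases Scd1 and Scd2 at 10.37 ± 0.24 and 12.99 ± 0.14. These were all above background. Abcg1, which LXR also switches on, was not, while Abca1 and Apoe were. Of the LXR list 3 genes were not analysed here.

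The other apolipoproteins, many of them known from liver and gut, were mostly not above background. Of the 14 genes on this list 5 were above it, 35.7% beside 58.3% of all genes tested. Their list had a median distance of -0.93 log2 units from the limit. Apoa1, of plasma high-density lipoprotein, was at 1.63 ± 1.70, and Apob, of low-density lipoprotein, at 1.403 ± 0.91. Apoc2, Apoc3 and Apom were at 2.08 ± 2.84, 3.86 ± 0.35 and 2.39 ± 0.70, and none of them passed. The genes above background were Apoc1, the neighbour of Apoe on chromosome 7, at 6.40 ± 0.32, Apoh at 5.28 ± 0.15, Apoa2 at 4.84 ± 0.45, and Apoo and Apool at 9.77 ± 0.15 and 8.22 ± 0.27. The products of Apoo and Apool belong to a mitochondrial inner membrane complex and are apolipoproteins mainly by name. Apoh passed on 1 of 2 probe sets and Apool on 1 of 3.

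Among 14 other genes of the ABC transporter family, 7 were above background, 50% beside 58.3% of all genes tested (median distance 0.79 log2 units). Abca7, a relative of Abca1, was at 6.24 ± 0.49, Abca2 at 6.20 ± 0.39, Abca3 at 9.79 ± 0.39 and Abca5 at 7.26 ± 0.09. Abca3 passed on 2 of 3 probe sets and Abca5 on 1 of 2. Abcg4, a close relative of Abcg1 known from neurons and glia, was at 5.28 ± 0.21 on 1 of 2 probe sets and passed (adjusted p = 0.00263, limma). Abcg2, a drug exporter, was at 6.79 ± 0.12. Abcg5 and Abcg8, which together export plant sterols in liver and gut, were at 2.43 ± 0.96 and 3.53 ± 0.88 and did not pass.

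Other lipoprotein receptors, ligands and adaptors were above background in 14 of 17 cases, 82.4% beside 58.3% of all genes tested (median distance 3.92 log2 units). Lrp8, the second reelin and apolipoprotein E receptor, was at 7.98 ± 0.38, and Scarb1, a high-density lipoprotein receptor, at 6.92 ± 0.19. Lrp2 was at 6.97 ± 0.33 and passed on 2 of 3 probe sets, and Lrp4 was at 8.06 ± 0.19. The sorting receptors Sorl1 and Sort1 were at 10.77 ± 0.25 and 9.13 ± 0.32. Cd36, a scavenger receptor of macrophages, was at 4.52 ± 0.21 and passed as a gene (adjusted p = 0.0373, limma) but on 0 of its 3 probe sets when the adjustment ran over all probe sets. Lrp5, Lrp1b and Lsr, at 1.98 ± 1.36, 2.30 ± 0.48 and 2.29 ± 0.54, did not pass. Beside Vldlr, its ligand gene Reln was at 7.39 ± 0.20 and passed on 1 of 2 probe sets. The adaptor gene Dab1 was at 9.21 ± 0.21, and Lrpap1, the chaperone of the whole receptor family, at 11.27 ± 0.15. Reln, Dab1 and Lrpap1 were picked with their values in view. Of this list 3 genes were not analysed here.

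Other lipases and the partners of lipases were above background in 8 of 10 cases, 80% beside 58.3% of all genes tested (median distance 2.78 log2 units). Lipa, the lysosomal acid lipase that frees cholesterol from engulfed particles, was at 7.01 ± 0.34. Lipe and Pnpla2, of stored fat, were at 6.66 ± 0.03 and 8.17 ± 0.30. Lmf1 and Sel1l, which help lipoprotein lipase fold, were above background at 6.51 ± 0.11 and 9.69 ± 0.25, as was Angptl4, an inhibitor of that lipase, at 6.10 ± 0.24. Gpihbp1, which carries it across capillary walls, was at 3.00 ± 1.15 and Lipg, the endothelial lipase, at 3.66 ± 0.67, and neither passed. Lipe, Pnpla2, Lmf1 and Angptl4 each passed on 1 of 2 probe sets, and Sel1l on 4 of 5.

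Genes that handle sterol inside the cell were above background in 9 of 13 cases, 69.2% beside 58.3% of all genes tested (median distance 3.80 log2 units). Npc1 and Npc2, which pass cholesterol out of the lysosome, were at 7.95 ± 0.19 and 11.57 ± 0.04, and Npc2 passed on 3 of 4 probe sets. Nceh1, a cholesteryl ester hydrolase, was at 8.02 ± 0.19, and the sterol carriers Stard3, Stard4, Osbp and Scp2 were at 8.54 ± 0.20, 7.86 ± 0.26, 8.65 ± 0.16 and 11.06 ± 0.18. Star, of steroid synthesis, was at 5.00 ± 0.18 and passed on 1 of 3 probe sets. The enzymes Cyp27a1, Ch25h and Cyp7b1, which make or use oxidised cholesterol, were at 0.61 ± 0.42, 1.24 ± 2.25 and 4.24 ± 0.15 and did not pass, nor did Tspo at 2.76 ± 0.83. Cyp46a1, which makes the oxidised cholesterol that leaves the brain and is known from neurons, was at 7.76 ± 0.51 and passed (adjusted p = 0.000252, limma), and was named after its value was seen.

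**Figure D4:**
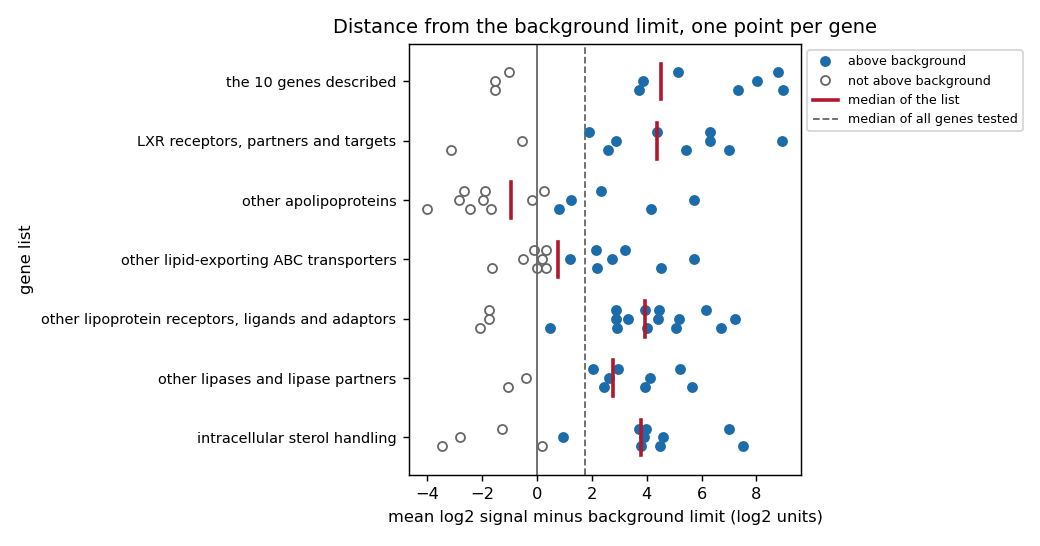
Mean log2 signal minus the background limit (horizontal axis) for each gene of the 10 described and of the 6 lists around them, filled where above background, with each list's median in red and the median of all genes tested, 1.76, as a dashed line. Most points of the other apolipoproteins are open (9 of 14), as are 7 of 14 of the other ABC transporters, and most points of the remaining lists are filled.

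The labelled cell type was checked with markers, along with other cells that can make these proteins. Among all genes tested 58.3% were above background. All 8 astrocyte markers were above background at their brightest probe set (6 with the median over probe sets). Among them were Gfap at 12.63 ± 0.12, Aqp4 at 11.87 ± 0.10 and Slc1a3 at 10.95 ± 0.25, the last on 4 of 6 probe sets. Of 10 markers of microglia and blood cells, which also express Apoe and Lpl, 1 was above it, Csf1r at 5.34 ± 0.18 on 1 of 3 probe sets, while Cx3cr1, Aif1 and Itgam were at 3.08 ± 0.18, 1.79 ± 1.62 and 1.98 ± 1.19. The summed intensity of the list was 126, 113 and 102 on replicates 1, 2 and 3. Of 7 oligodendrocyte markers 2 passed, Cnp at 11.72 ± 0.20 and Sox10 at 4.64 ± 0.15, the latter on 1 of 3 probe sets. Mbp, Mog and Mag were at 4.55 ± 0.33, 1.14 ± 1.84 and 2.10 ± 0.23. Of 8 neuron markers 3 passed: Rbfox3 at 6.66 ± 0.30 on 2 of 3 probe sets, Tubb3 at 5.83 ± 0.65 on its single probe set, and Syt1 at 7.24 ± 0.12 on 1 of 4. Snap25 was at 2.02 ± 0.50.

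Of 7 endothelial markers 1 passed, Kdr at 6.59 ± 0.46, and of 7 fibroblast and mural markers 1, Rgs5 at 5.03 ± 0.19 on 1 of 4 probe sets. Pecam1, Cdh5 and Cldn5 were at 1.56 ± 2.00, 2.20 ± 1.16 and 2.92 ± 1.72, and Col1a1, Col1a2 and Col3a1 at 2.85 ± 0.50, 3.72 ± 0.75 and 2.59 ± 0.69. Among 5 choroid plexus markers Folr1, a folate receptor, was at 9.91 ± 0.06 and Kcnj13 at 4.81 ± 0.36, both above background, whereas Kl and Clic6 were at 0.78 ± 1.89 and 4.25 ± 0.31, and Ttr, the transthyretin gene that defines this tissue and was added with its value known, at 2.70 ± 0.94. Alb, at 4.96 ± 0.20, was the 1 of 5 liver and endoderm markers that passed, with Afp and Ahsg at 2.33 ± 2.39 and 1.70 ± 1.44. None of 5 adipocyte markers was above background by limma (0 at an unadjusted p below 0.05), and Adipoq, Fabp4 and Pparg were at 0.29 ± 2.09, 1.67 ± 1.68 and 1.37 ± 1.19. The part of any such cells in the signal of the 10 genes was not tested.

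**Figure D5:**
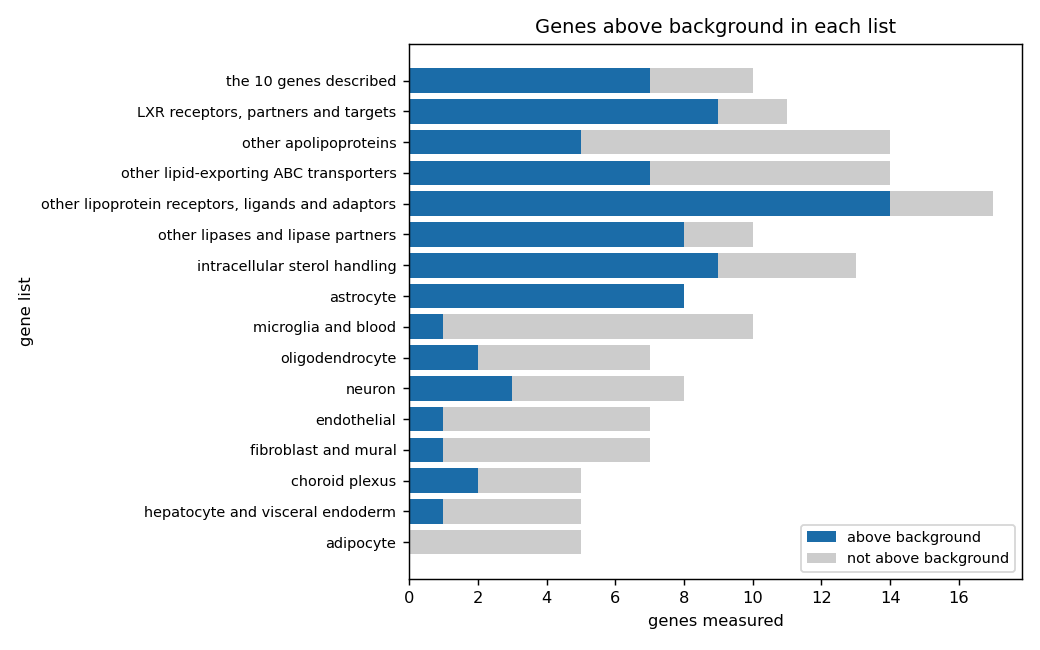
Number of genes measured in each list (horizontal axis, bars from 0), split into those above background (blue) and those not (grey), for the 10 genes described, the 6 lists of the wider route and 9 marker lists. The astrocyte bar is blue throughout (8 of 8), and those of microglia and blood (1 of 10), endothelial cells (1 of 7) and adipocytes (0 of 5) are mostly or wholly grey.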

How the data were processed

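Total RNA of 3 mouse embryonic stem cell-derived astrocyte samples was hybridised to Affymetrix Mouse Genome 430 2.0 arrays, as the labels' protocols state. The deposited table has 1 linear intensity per probe set and array (45101 probe sets, 0.0563 to 12521, median 20.0, 23.3 and 19.4 on replicates 1, 2 and 3), made with GCOS 1.4 per the submitters' processing notes. For RNA quality, the scaling target, detection calls, slide and scan date nothing is stated (not given in the sources used here). Log2 was taken with no pseudocount. The platform annotation gave 1 gene for 34958 probe sets, several for 932 and none for 9211. Symbols were updated through GRCm38.p6 (0 changed). The distance of the log2 signal from each array's limit went into limma 3.58.1 (R 4.3.3). The procedure was tested on simulated data, which did not cover the choice of the brightest probe set or the uncertainty of the limit. No 2 arrays held an identical signal (0 probe sets). Genes above background correlated at 0.990 between replicates 1 and 2, 0.974 between 1 and 3 and 0.979 between 2 and 3 (Pearson). The number of arrays limits the precision.

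The 10 genes and all lists were chosen with earlier results of these data known. Named genes are the 10, the first 8 measured genes of each list of the wider route and the first 3 of each marker list, and the smaller side of a call where it held 8 or fewer (4 or fewer for markers). Reln, Dab1, Lrpap1, Cyp46a1 and Ttr fall outside this rule and were named with their values in view. Some list genes are not reported here. Alternatives covered the limit, the probe set rule, normalization, a pseudocount, a filter on low signal and leaving out each array.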

Additional observations from a re-analysis of the deposited data

How the results depend on the processing

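The count of 7 genes above background was 7 under all 10 alternatives, and each of the 97 values these gave for the 10 genes kept its side of the limit and of the test; the filter on a mean signal of at least 20 left Apod, Abcg1 and Lpl untested. Distances from the limit ran from 4.35 to 7.58 log2 units for Abca1, from 1.397 to 4.14 for Vldlr and from 2.83 to 5.41 for Lrp1, with the low end from taking the median over probe sets, and from -1.77 to -0.34 for Abcg1. The 16 probe sets above background were 14 with the limit at the 99th percentile and without replicate 1 or 2. All genes above background numbered 9158 to 10900. With that median, the other apolipoproteins numbered 3 in place of 5, the lipase list 5 in place of 8, microglia and blood markers 0, fibroblast and mural markers 0 and oligodendrocyte markers 1, while astrocyte markers numbered 6 in place of 8 and neuron markers 2 in place of 3. With the limit at the 99th percentile, oligodendrocyte and choroid plexus markers numbered 1 each and liver and endoderm markers 0. Leaving out 1 array gave 1 to 2 oligodendrocyte and 1 to 2 choroid plexus markers, the lower count without replicate 1 or without replicate 2. No paired analysis was possible because the samples form 1 group. With 3 arrays and no probe-level values, genes near the limit can go unseen.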

Other observations

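The parting of probe sets seen in Abca1 was counted over all genes as a value with no explanation. Of 7703 probe sets that were above background beside a brighter probe set of the same gene, 178 were lower by 2 or more log2 units on replicate 3 than on the other arrays relative to the brighter one, and 10 were higher. On replicate 1 the counts were 2 lower and 6 higher, and on replicate 2 they were 1 lower and 0 higher. The median of this difference was -0.22 log2 units for replicate 3, 0.14 for replicate 1 and 0.13 for replicate 2, over 4734 genes.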
